A study of Mus musculus with 13 samples.

Results

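The C/EBP genes of the mouse are described here by the acetylation of lysine 27 on histone H3 (H3K27ac) over them, a mark of active promoters and enhancers. The members are Cebpa, Cebpb, Cebpd, Cebpe, Cebpg and Cebpz, 6 of the 21883 protein-coding genes of the mouse annotation and of the 14655 that had acetylated chromatin called in any library. They were chosen by name. A gene's value is the sum of reads in every enriched stretch (an island) of the merged region that touches the gene's span or the 1 kb on either side. The 6 genes had 7 such merged regions, each called in 13 of 13 libraries. Cebpz had 1 at each end of its span. The libraries came from bone marrow-derived macrophages of C57BL/6 mice on day 7 of differentiation, with 1 library per condition. Cells without an shRNA were untreated or were given IFNγ (interferon-γ, 100 ng/ml), IL-4 (interleukin-4, 10 ng/ml) or the 2 combined. Cytokines were left on for 2 h or 4 h, which makes 7 libraries. The other 6 came from cells with a scramble shRNA, shJunB or shCEBP-beta, each without cytokine and after 4 h of 100 ng/ml IFNγ. All libraries share the strain, the cell type, the antibody and a single control library. The sources used here do not say whether the libraries came from separate cultures, and no condition was repeated.

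C/EBP proteins are transcription factors with a basic region that binds DNA and a leucine zipper through which they pair with each other and with relatives such as ATF4 and CHOP. C/EBPα drives the commitment of progenitors to the myeloid lineage, C/EBPε the late maturation of granulocytes, and C/EBPβ and C/EBPδ take part in the inflammatory and alternative activation of macrophages. C/EBPγ has the binding and pairing parts but lacks an activation domain, and it forms heterodimers with the other members and with ATF4. Cebpz carries a similar name but encodes a CCAAT-binding protein without the leucine zipper, of a family linked to ribosome assembly.

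The promoters of the 3 genes matched in the RefSeq table (build GRCm38.p6) are shown so that the breaks and islands at their start sites, described below, can be placed. Cebpd, Cebpe and Cebpz are named only. Each is the 250 bases before the start, 5′ to 3′ on the gene's own strand. Capitals mark matches, on either strand, to TGACG (the core of a cAMP response element), TTGCG (one arm of a C/EBP site), CCAAT (a common promoter box), TATAAA (the TATA box) and TTCNNNGAA (a STAT site). Matches that overlap would share their capitals.
Cebpb, chr2:167688665-167688914, plus strand: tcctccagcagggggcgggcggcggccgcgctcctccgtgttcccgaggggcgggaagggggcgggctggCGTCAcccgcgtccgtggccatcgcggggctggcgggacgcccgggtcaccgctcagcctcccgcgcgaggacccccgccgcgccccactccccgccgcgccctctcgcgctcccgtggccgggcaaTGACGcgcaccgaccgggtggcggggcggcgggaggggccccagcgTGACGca
Cebpa, chr7:35119043-35119292, plus strand: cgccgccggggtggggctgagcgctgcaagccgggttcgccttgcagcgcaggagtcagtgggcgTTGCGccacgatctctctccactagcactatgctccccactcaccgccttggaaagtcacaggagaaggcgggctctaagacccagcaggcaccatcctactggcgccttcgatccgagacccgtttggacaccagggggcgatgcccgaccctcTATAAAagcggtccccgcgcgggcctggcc
Cebpg, chr7:35056567-35056816, minus strand: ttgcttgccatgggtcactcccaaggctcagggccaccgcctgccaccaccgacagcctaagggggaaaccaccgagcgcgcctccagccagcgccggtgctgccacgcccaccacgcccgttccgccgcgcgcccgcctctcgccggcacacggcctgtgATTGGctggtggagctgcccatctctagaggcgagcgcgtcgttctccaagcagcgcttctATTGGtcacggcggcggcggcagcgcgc
The 3 promoters shared no motif of this set. Cebpb had 3 matches to TGACG, which was present in 17.8% of 32841 RefSeq promoters of the same length, and no match to the others. Cebpa had 1 TATAAA, 30 bases before the start (12.4% of all promoters), and 1 TTGCG (14.5%). Cebpg had 2 CCAAT (33.9%), both on the opposite strand. TTCNNNGAA was in 7.02% of all promoters and had 0 matches in these 3. The share of G and C was 81.6% for Cebpb, above 99.3% of all promoters, 70.8% for Cebpg and 66.4% for Cebpa, against a median of 52.4%.

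Reads in islands ranged from 10.1 to 29.5 M per library, lowest in scramble cells with IFNγ and highest with both cytokines at 4 h. Values below are reads divided by a size factor for each library (normalised reads). The identity of the cells was read from their markers: 10 of 10 macrophage markers had islands, with summed normalised reads of 54408 to 83444 per library, and 6 of 10 neutrophil and granulocyte precursor markers did, with 4331 to 7772. Of the latter, Mpo, Ngp, Ly6g and S100a9 were called in no library. Markers of other cells had islands too: 5 of 6 dendritic (8263 to 18129), 4 of 6 T cell (7166 to 13456), 4 of 5 B cell (2871 to 8436), 3 of 5 mast cell and basophil (819 to 5786), 2 of 6 fibroblast (9661 to 15811) and 3 of 5 erythroid markers (211 to 1659). Pdgfrb shares its region with the macrophage gene Csf1r. Their part in the results was not tested. Untreated cells and scramble cells, both without cytokine, differed by at least 2-fold at 11.6% of protein-coding genes, so differences between the 2 sets of libraries are not read as effects of an shRNA. For 2 libraries no test exists. A gene is then called by size alone, when its ratio reaches 2-fold and its larger value reaches 50 normalised reads (the size rule), and 95% exact binomial intervals are given, which cover counting error only. Reads carry no molecular identifiers. In these bulk samples, fewer cells with the mark and less of it per cell cannot be told apart.

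**Figure D1:**
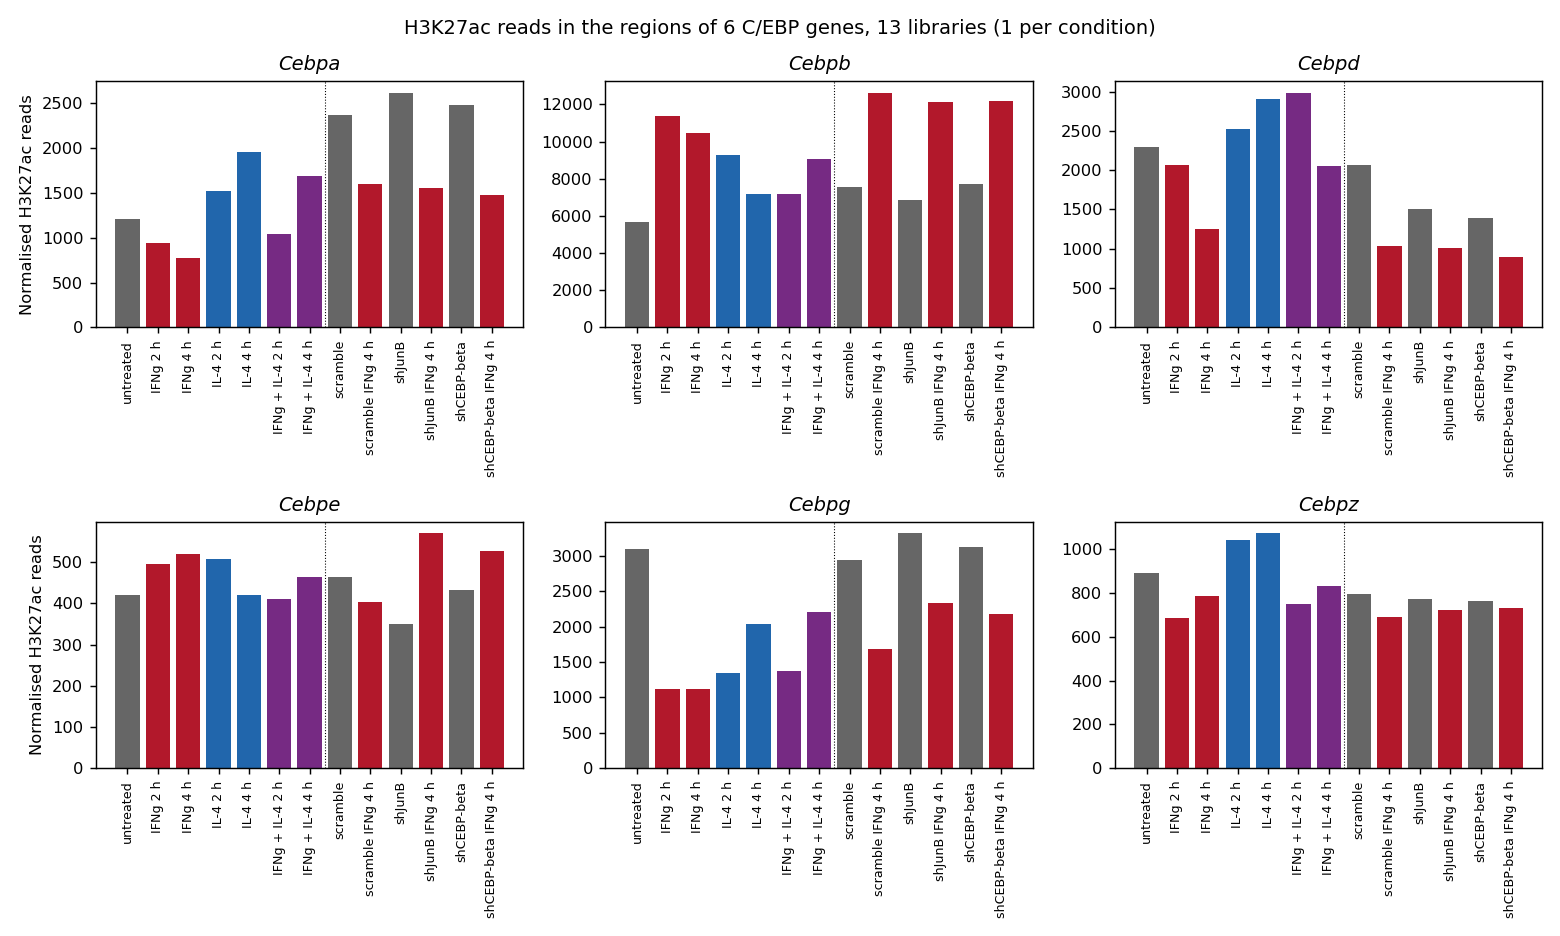
Normalised H3K27ac reads (y axis, linear, from 0) in the merged regions of the 6 genes in each of the 13 libraries (x axis). Grey bars had no cytokine, red IFNγ, blue IL-4 and purple both, and a dotted line parts the cells without an shRNA from those with one. Cebpb is the highest in all libraries with IFNγ alone, with 10487 reads or more, while Cebpz stays between 686 and 1073.

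Per length of called island the genes ranked as follows. The median over the 13 libraries was 154 normalised reads per kb for Cebpd, 142 for Cebpb, 116 for Cebpz, 98.4 for Cebpa, 85.1 for Cebpg and 65.0 for Cebpe. These medians were ranked among the 14655 protein-coding genes with islands in any library, each by its median over the libraries that had them. They stood at the 91.8th percentile for Cebpd, the 87.9th for Cebpb and the 74.9th for Cebpz. Cebpa was at the 61.8th, Cebpg at the 49.7th and Cebpe at the 30.7th. Neighbours in this order overlapped: Cebpd ranged from 80.9 to 185 reads per kb, Cebpb from 93.7 to 194, and Cebpz from 83.7 to 145. Cebpg (63.2 to 121) and Cebpe (38.5 to 95.8) overlapped too. The widest spread in reads was that of Cebpa, with 3.37 times as many in the highest as in the lowest library, and the narrowest that of Cebpz, with 1.56 times.

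Cebpb, the gene for C/EBPβ, lies on chr2:167688915-167690432 and carried more H3K27ac after IFNγ in all 4 cell backgrounds. Its region, chr2:167683401-167750400, spans 67 kb, from 5.5 kb before the start to 61.5 kb beyond it, and holds no other protein-coding gene but the long non-coding RNA genes A530013C23Rik, Gm38464 and Gm52570. Without an shRNA, untreated cells had 5679.8 normalised reads, IFNγ gave 11374 at 2 h and 10487 at 4 h, IL-4 gave 9256 and 7162, and both cytokines 7206 and 9067. Untreated cells were the lowest of all 13 libraries. With an shRNA, the reads without and with IFNγ were 7565 and 12631 for scramble, 6865 and 12120.3 for shJunB, and 7744 and 12204 for shCEBP-beta. The 4 libraries without cytokine (5679.8 to 7744) and the 4 with IFNγ for 4 h (10487 to 12631) did not overlap. The called length hardly differed between them (60.6 to 66.2 kb and 64.4 to 66.6 kb), and reads per kb were 93.7 to 117 without cytokine and 163 to 194 with IFNγ. The share of all genes in which these libraries do not overlap is not given, here or for the members and flanks below. In the edgeR fit described below, 22.3% of all regions rose and 22.7% fell with IFNγ at an adjusted p under 0.05.

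At 2 h of IFNγ, Cebpb was 2.00-fold over untreated cells (interval 1.93 to 2.07), just past the size rule, as were 13.5% of protein-coding genes in the higher direction. In reads per kb the ratio was 1.86, and with islands merged over these 2 libraries alone it was 0.90 on the log2 scale, below 2-fold. At 4 h the ratio was 1.85 (1.79 to 1.91) without an shRNA, 1.67 in scramble, 1.77 in shJunB and 1.58 in shCEBP-beta cells, none of them past 2-fold, where 14.7% of genes were higher without an shRNA, and in either direction 13.5% were in scramble, 13.7% in shJunB and 13.3% in shCEBP-beta cells. With only the islands that touch the gene the ratios were 4.76, 1.54, 4.33 and 4.10. In the 3 pairs past 2-fold that island ran on to the far end of the region with IFNγ but not without it.

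The shape of the Cebpb domain differed between libraries. In 6 of 13 no island covered the start site. The uncalled stretch ran from -314 bases (IL-4 at 4 h and both cytokines at 2 h) or -114 bases (the other 4) to 685 bases after the start. In those 4 it was 800 bases long, and islands lie on a grid of 200 bases. As 800 bases is also the smallest gap between islands in any library, the break is at the limit of what the calling separates. The shorter stretch holds the TGACG matches at -53 and -7 printed above, and the longer one also that at -180. These 6 libraries were untreated cells and every cytokine library but IFNγ at 2 h. In that library and in the 6 libraries with an shRNA an island ran across the start. Where the stretch was uncalled, the island before it covered 3.2 to 4.2 kb. It held 215 normalised reads in untreated cells, 338 with IL-4 at 2 h and 234 with IL-4 at 4 h. Both cytokines gave 308 and 464 at 2 h and 4 h, and IFNγ at 4 h gave 615. The last was 2.86-fold over untreated cells (2.43 to 3.39), and both cytokines at 4 h gave 2.16-fold (1.83 to 2.56). No share of all islands past 2-fold is given for such a piece. It could not be read apart with IFNγ at 2 h or in any library with an shRNA. A second break, between 18 and 20 kb from the start, was present in 9 libraries and bridged in 4, namely IL-4 at 2 h, IFNγ at 4 h, and shJunB and shCEBP-beta with IFNγ. Where it was present, the parts on its near and far side could be read apart. IFNγ at 2 h was 1.87-fold over untreated cells on the near side and 2.09-fold on the far side, and IFNγ in scramble cells was 1.54-fold and 1.75-fold over scramble. IL-4 at 4 h was 0.958-fold on the near side (0.901 to 1.02) and 1.45-fold on the far side (1.39 to 1.52).

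**Figure D2:**
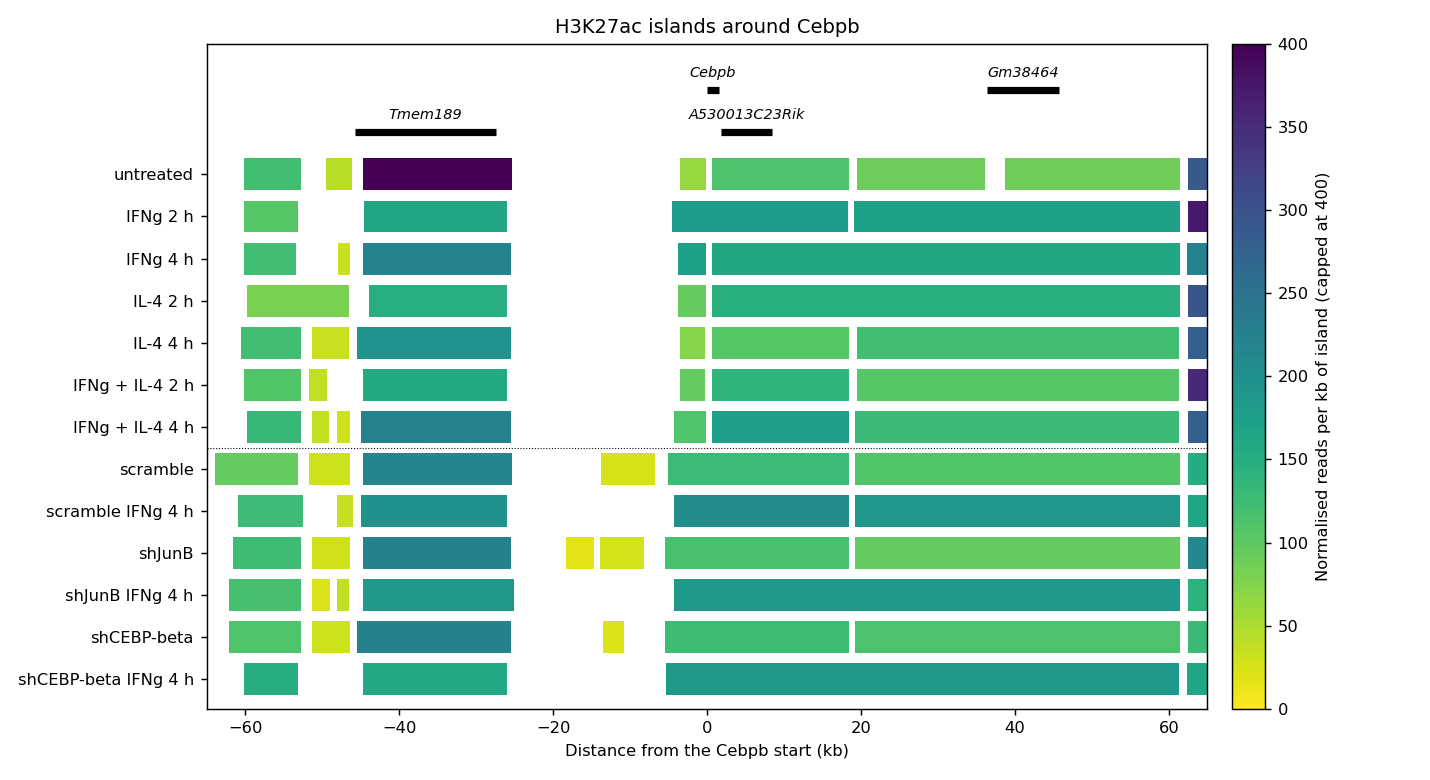
Islands (blocks) around Cebpb in each library (rows), placed by distance in kb from the Cebpb start. Colour gives normalised reads per kb, on a linear scale capped at 400, and black bars are genes. The breaks near 0 kb and near 19 kb are present in some libraries and bridged in others, and untreated cells have the darkest block over Tmem189.

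Farther upstream of Cebpb the direction was the opposite. The region over Tmem189, chr2:167643401-167663800, at -45.5 to -25.1 kb from the Cebpb start, had 8044 normalised reads in untreated cells and 2688 to 4319 in the 6 libraries with cytokine but no shRNA. Scramble, shJunB and shCEBP-beta cells without cytokine had 4244, 4361 and 4536, and with IFNγ 3743, 3595 and 3013. The log2 change with IFNγ over the 4 backgrounds was -0.49 (SE 0.15, edgeR adjusted p = 0.0437). The change was -0.34 without the pair lacking an shRNA (edgeR adjusted p = 0.0439), and the call was lost without the scramble pair (0.0567), the shJunB pair (0.0778) or the shCEBP-beta pair (0.141). Untreated cells stood apart there, at 415 normalised reads per kb against 149 to 227 in the other 12 libraries.

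Cebpa, the gene for C/EBPα, lies on chr7:35119293-35121928 in the region chr7:35104601-35131200, with no other protein-coding gene. It had fewer reads after IFNγ and more after IL-4. Without an shRNA, untreated cells had 1209 normalised reads, IFNγ gave 945 and 776 at 2 h and 4 h, IL-4 1523 and 1954, and both cytokines 1036 and 1693. The pairs without and with IFNγ were 2374 and 1603 for scramble, 2618 and 1557 for shJunB, and 2486 and 1475 for shCEBP-beta. IFNγ libraries were below their own partner in 4 of 4 pairs, with ratios of 0.593 to 0.675, while untreated cells were below all 3 IFNγ libraries with an shRNA. The called length moved with the reads: islands covered 16.6 to 25.4 kb without cytokine and 13.6 to 15.0 kb with IFNγ for 4 h, and the ratio of reads per kb was 0.784 to 1.104, lower in only 2 of 4 pairs. With the window widened to 10 kb around the gene, which takes in the next region downstream, the log2 ratio in cells without an shRNA was 0.10 instead of -0.64. Adding IL-4 to IFNγ for 4 h gave 2.18-fold (2.03 to 2.35) over IFNγ alone, past the size rule as were 5.39% of genes in the higher direction, and 1.47-fold per kb. Scramble cells stood at 1.96-fold over untreated cells.

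The chromatin on the 2 sides of Cebpa was read next. Downstream, chr7:35131401-35159800, from 12.1 to 40.5 kb, holds the position 36 to 38 kb from the start, where a myeloid enhancer of Cebpa is known. An island covered that position in 13 of 13 libraries, at 69.1 to 134 normalised reads per kb. The log2 change of this region with IFNγ was -0.01 (SE 0.14, edgeR adjusted p = 0.949), but the pairs did not move one way. With IFNγ for 4 h it stood at 1.43 in cells without an shRNA. In scramble, shJunB and shCEBP-beta cells the ratios were 0.851, 0.892 and 0.890. Without an shRNA the called length was 17.4 kb untreated and 25.8 kb with IFNγ, and reads per kb were 84.4 and 81.2. Upstream, chr7:35072601-35103000, at -46.7 to -16.3 kb and so between Cebpg and Cebpa, untreated cells had 1776 normalised reads, IFNγ gave 733 and 560 at 2 h and 4 h, IL-4 1262 and 1438, and both cytokines 2006 and 2578. Without and with IFNγ it had 1537 and 445 in scramble, 1598 and 708 in shJunB, and 1629 and 925 in shCEBP-beta cells. All 5 libraries with IFNγ alone were below all others. The log2 change was -1.36 (SE 0.19, edgeR adjusted p = 0.00423), lower in 4 of 4 pairs. Its called length fell with it, from 15.2 to 6.4 kb in cells without an shRNA and from 26.2 to 5.8 kb in scramble cells, and reads per kb were 117 and 87.6 in the first pair and 58.7 and 76.7 in the second.

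Cebpg, the gene for C/EBPγ, lies on chr7:35046422-35056566, in the region chr7:35019401-35059800, which it shares with Pepd, a peptidase gene, and Gm45095. Reads in this region were lower after every cytokine. Untreated cells had 3097 normalised reads, IFNγ gave 1116 and 1124 at 2 h and 4 h, IL-4 1339.8 and 2043, and both 1370.0 and 2210.3. The pairs were 2948 and 1682 for scramble, 3318 and 2329.8 for shJunB, and 3133 and 2174 for shCEBP-beta. The 4 libraries without cytokine (2948 to 3318) and the 4 with IFNγ for 4 h (1124 to 2329.8) did not overlap. Cebpg was past the size rule downward with IFNγ at 2 h (0.361-fold, where 11.7% of genes were lower) and 4 h (0.363-fold, where 12.5% were lower). It was also past it with IL-4 at 2 h (0.433-fold, where 10.9% were lower) and both cytokines at 2 h (0.442-fold, where 11.5% were lower). In reads per kb these ratios were 0.689, 0.704, 0.803 and 0.776, and with islands merged over the 2 compared libraries alone 0 of the 4 were past the size rule. It was at 0.570 in scramble, 0.702 in shJunB and 0.694 in shCEBP-beta cells.

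Most of the lost reads lay toward Pepd. In 10 libraries the Pepd side and the Cebpg side were separate. On the Pepd side untreated cells had 2225 normalised reads over 17.4 kb and IFNγ at 4 h had 596 over 5.0 kb, 3.73-fold lower. On the Cebpg side, which holds the gene's start, they had 872 over 8.2 kb and 527 over 8.2 kb, a ratio of 0.605. Scramble cells had 1996 and 952 on the 2 sides and 975 and 707 with IFNγ, ratios of 0.489 and 0.742. An island covered the Cebpg start in 13 of 13 libraries.

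**Figure D3:**
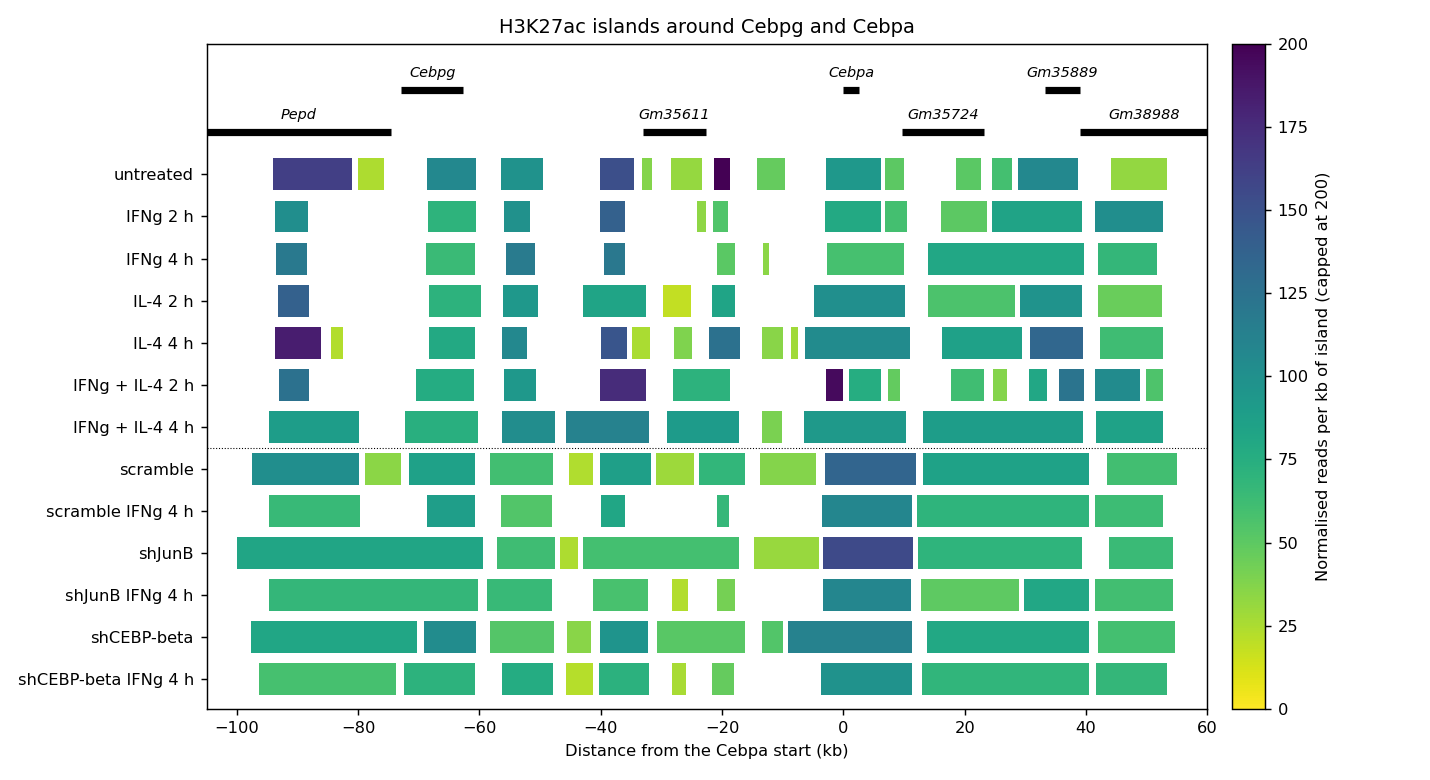
Islands around Cebpg and Cebpa in each library (rows), placed by distance in kb from the Cebpa start. Colour gives normalised reads per kb, on a linear scale capped at 200, and black bars are genes. Between about -47 and -16 kb the 5 libraries with IFNγ alone hold 445 to 925 normalised reads, less than all others, and the blocks at 36 to 38 kb are present throughout.

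Cebpd, the gene for C/EBPδ, lies on chr16:15887286-15889545 in the region chr16:15885201-15905800, shared with Spidr, a DNA repair gene. IFNγ lowered it at 4 h. Untreated cells had 2297 normalised reads and IFNγ gave 2064 at 2 h and 1254 at 4 h. IL-4 gave 2528 and 2902 and both cytokines 2984 and 2052. The pairs were 2062 and 1034 for scramble, 1509 and 1003 for shJunB, and 1393 and 899 for shCEBP-beta. All 4 libraries with IFNγ for 4 h (899 to 1254) were below all 4 without cytokine (1393 to 2297), whereas IFNγ at 2 h was among the latter. The ratios at 4 h were 0.501 to 0.665. In reads per kb they were 0.525 to 0.994, with a called length of 9.8 to 12.4 kb without cytokine and 7.2 to 12.4 kb with IFNγ. Adding IL-4 to IFNγ gave 1.45-fold at 2 h and 1.64-fold at 4 h over IFNγ alone. Per kb these were 1.14 and 0.827, so that the second changed direction.

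Cebpe, the granulocyte gene for C/EBPε on chr14:54710363-54712174 (region chr14:54705001-54719800), had the lowest median per kb of the members. Its normalised reads ran from 350 in shJunB cells to 570.1 in shJunB cells with IFNγ, with a median of 464 over the 13 libraries. The pairs with IFNγ for 4 h did not move one way: the ratio was 1.24 in cells without an shRNA, 0.872 in scramble, 1.63 in shJunB and 1.21 in shCEBP-beta cells. In reads per kb the ratios were 1.24, 1.23, 0.793 and 0.781, so that the last 3 turned, with a called length of 7.2 and 14.8 kb in the shJunB pair. Cebpz, on chr17:78919003-78937070, had regions at both ends. One, chr17:78915601-78920400, is shared with Cebpzos and the other, chr17:78935001-78940200, with Ndufaf7. Summed, they held 686 normalised reads with IFNγ at 2 h and 1073 with IL-4 at 4 h, the lowest and the highest library. Ratios with IFNγ for 4 h were 0.867 to 0.959.

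The 4 pairs with and without IFNγ for 4 h are the only repeats of a treatment, and were fitted together with the cell background as a block. The fit covered the 14347 regions called in all libraries and used edgeR's quasi-likelihood test with Benjamini-Hochberg adjustment. Of the 7 member regions 1 rose and 3 fell at an adjusted p under 0.05, as did 22.3% and 22.7% of all regions. The Cebpb region rose by 0.78 on the log2 scale (SE 0.076, adjusted p = 0.00172). Cebpa fell by 0.68 (SE 0.090, adjusted p = 0.0036), Cebpd by 0.77 (SE 0.11, adjusted p = 0.00464) and Cebpg by 0.82 (SE 0.19, adjusted p = 0.0187), each lower in 4 of 4 pairs. The call for Cebpg was lost without the scramble pair, where the edgeR adjusted p was 0.0639. The scramble ratio (0.570) lay between that of cells without an shRNA (0.363) and those of shJunB (0.702) and shCEBP-beta cells (0.694). The log2 change was 0.28 for Cebpe (SE 0.16, adjusted p = 0.203), -0.04 for the low end of Cebpz (SE 0.094, adjusted p = 0.745) and -0.25 for its high end (SE 0.092, adjusted p = 0.0768). The spread in this fit is that of the response between backgrounds, and the fit reads sums over called islands, so a change of called length counts as a change of reads.

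**Figure D4:**
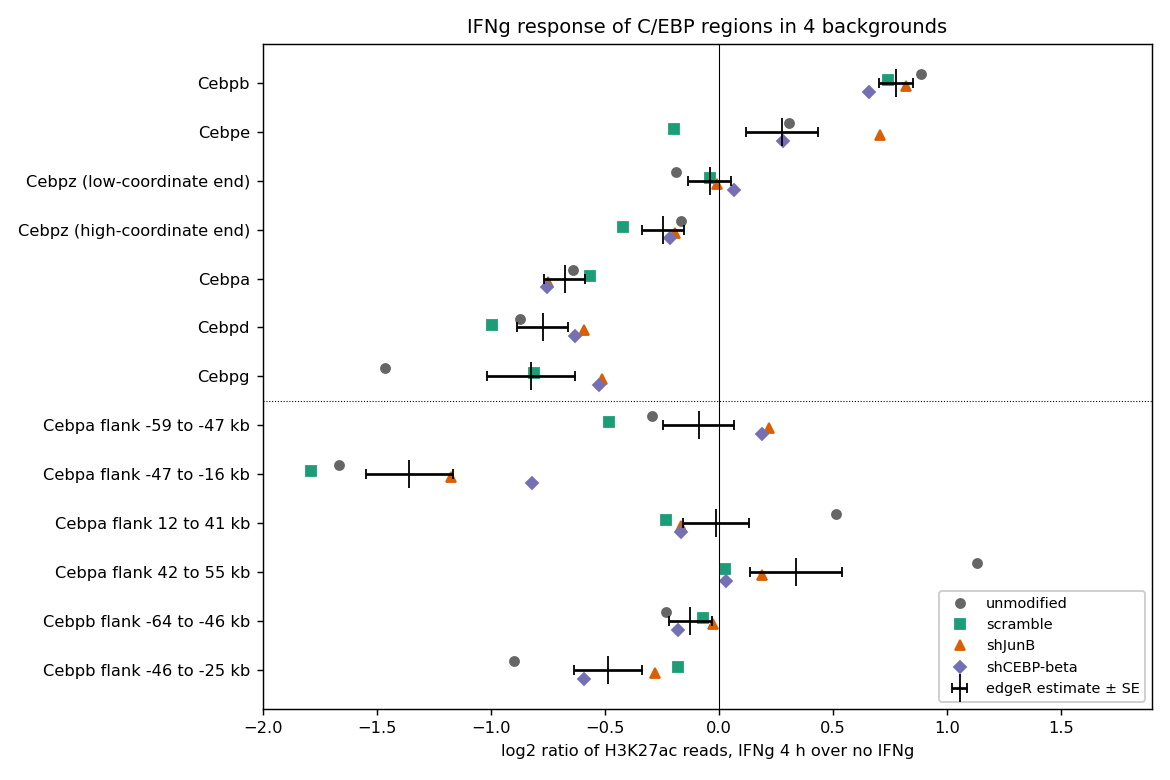
log2 ratio of normalised reads with IFNγ for 4 h over no IFNγ (x axis) for the member regions and for flanking regions of Cebpa and Cebpb called in all libraries (y axis). Symbols are the 4 cell backgrounds, and black ticks with bars are edgeR's estimate ± SE. All 4 symbols lie right of 0 for Cebpb and left of 0 for Cebpa, Cebpd, Cebpg and the flank 47 to 16 kb before Cebpa.

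IL-4 was present in 4 of the 7 libraries without an shRNA. An additive fit of IFNγ, IL-4 and time called 0 of 14347 regions with edgeR (0.0% in each direction), 0 of the 7 member regions among them. At an unadjusted p under 0.05 it had 2453 regions, of which 0 were member regions, and DESeq2 called 525 higher and 665 lower. The log2 estimate for IL-4 was 0.54 for Cebpa (SE 0.25), 0.56 for Cebpd (SE 0.23), -0.06 for Cebpb (SE 0.27) and -0.05 for Cebpg (SE 0.44). The single comparisons with untreated cells share that library. Against it, IL-4 at 2 h and 4 h stood at 1.63 and 1.26 for Cebpb, 1.26 and 1.62 for Cebpa, 1.101 and 1.26 for Cebpd, 1.17 and 1.20 for Cebpz, 1.21 and 1.00 for Cebpe, and 0.433 and 0.660 for Cebpg. In reads per kb, Cebpd was below 1 at both times (0.842 and 0.911) and Cebpe at 2 h (0.929; 1.37 at 4 h), Cebpg was at 0.803 and 0.982, and the other 3 genes kept their direction. With IL-4 at 4 h no member was past the size rule, where 18.1% of genes were, nor with both at 4 h, where 22.9% were. Both against IFNγ at 2 h (6.14%) and against IL-4 at 2 h (17.2%) and 4 h (15.5%) had none either. Both cytokines at 4 h stood at 0.865 of IFNγ alone for Cebpb (0.844 to 0.885) and 1.97-fold for Cebpg (1.85 to 2.09). For Cebpg the called length was 2.03 times as long, and the ratio per kb was 0.969. With only the islands that touch the gene the Cebpb ratio was 0.346, since the break at 18 to 20 kb is bridged with IFNγ alone.

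**Figure D5:**
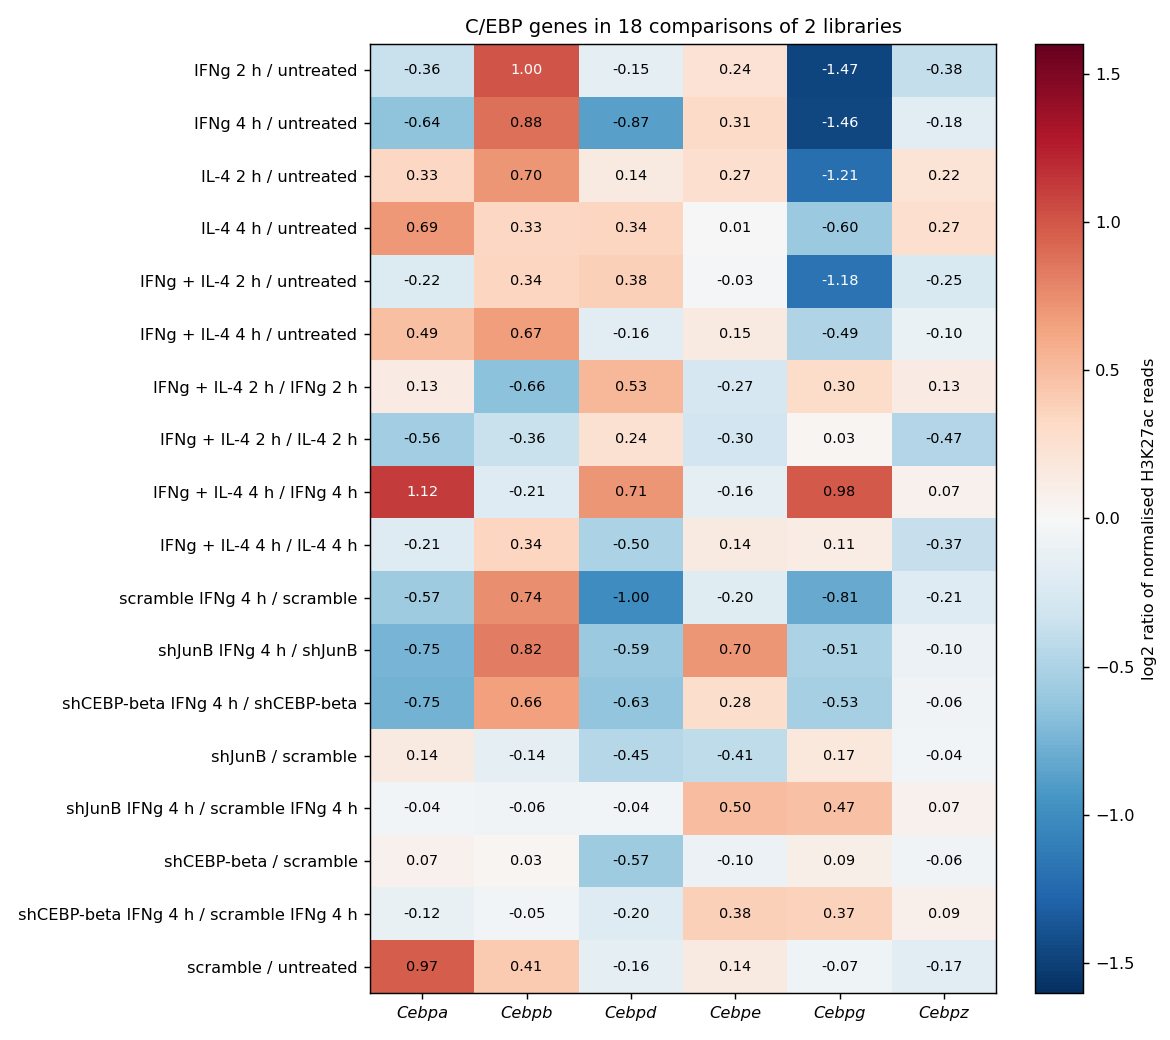
log2 ratio of normalised reads for the 6 genes (columns) in the 18 comparisons of 2 libraries (rows), printed in each cell and coloured from blue (lower) to red (higher). The Cebpb column is above 0 for all comparisons of a cytokine with no cytokine, and the knockdown rows lie between -0.57 and 0.50.

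Knockdown with shCEBP-beta is aimed at the Cebpb transcript, and H3K27ac over Cebpb does not check it. In both states the level over Cebpb was close to that of scramble, 1.02-fold without cytokine (0.992 to 1.06) and 0.966-fold with IFNγ (0.939 to 0.994). Across the 6 libraries with an shRNA, the fit with the IFNγ state as a block called 0 of 14347 regions for shCEBP-beta (0.0%) and 0 for shJunB (0.0%) with edgeR. At an unadjusted p under 0.05 there were 1144 and 2289 regions, and DESeq2 called 63 higher and 2 lower for shCEBP-beta and 342 and 183 for shJunB. The Cebpb region had a log2 difference from scramble of -0.01 with shCEBP-beta (SE 0.079) and -0.11 with shJunB (SE 0.079). Cebpd had the lowest estimate of the members for shCEBP-beta, -0.40 (SE 0.13, unadjusted p = 0.0301, edgeR adjusted p = 0.591). Its reads stood at 0.676 of scramble without cytokine and 0.869 with IFNγ for shCEBP-beta, and at 0.732 and 0.970 for shJunB. Cebpg with shJunB had 0.31 (SE 0.11, unadjusted p = 0.0362, edgeR adjusted p = 0.276). No member was past 2-fold in the 4 comparisons of an shRNA with scramble, where 1.54% and 1.61% of genes were for shCEBP-beta without and with IFNγ, and 2.94% and 2.54% for shJunB. With only the islands that touch the gene, which are longer where breaks are bridged, Cebpg was at 2.86 and 3.30 of scramble with shJunB and 2.70 and 3.08 with shCEBP-beta, without and with IFNγ. Cebpb with IFNγ was then at 2.60 and 2.62 with shJunB and shCEBP-beta.

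The genes whose levels ran most like each member over the 13 libraries are given by Pearson's correlation of log2 normalised reads. They were sought among the 12172 protein-coding genes with islands in every library. The libraries share treatments and backgrounds, and a highest value among so many is chosen to be high. For Cebpb they were Tmeff1 (0.94), Neu3 and Cmklr1, for Cebpa Tmem41a (0.96), Lrrc24 and Styxl1, and for Cebpd Pheta1 (0.98), Sh2b3 and Atxn2. For Cebpg they were Ppp1r16a (0.97), Dnajb9 and Slc39a3, for Cebpz Cdc42 (0.95), Tpd52 and Prkcd, and for Cebpe Fndc7 (0.83), Lrrc29 and Stxbp3.

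Genes that work with the C/EBP proteins were read from lists against the same background. Of 24 partners and relatives of the leucine zipper class with a value, 3 were at least 2-fold higher and 1 lower with IFNγ at 4 h over untreated cells, with a median log2 ratio of 0.11 beside 0.01 over all genes. Of all genes 14.7% were higher and 12.5% lower. Batf2, an IFN-induced partner of AP-1 proteins, had 612 and 5089 normalised reads (8.32-fold) and 3.32-fold in scramble cells. Jdp2 was at 2.04-fold, and Tef, at the other end, at 0.223-fold. Ddit3, which encodes CHOP, had 2298 and 1287 (0.560-fold), in a region shared with Dctn2, Mars1 and Mbd6. Atf3 was at 0.543, Atf4 at 1.04 and Junb at 1.52. These share their regions too, Atf3 with Fam71a and Nenf, Atf4 with Mief1 and Rps19bp1, and Junb with Hook2, Prdx2 and Rnaseh2a. Among the regulators of C/EBP genes or proteins, Kat2a, which encodes an acetyltransferase, was at 2.28-fold, in a region that holds other genes. Trib1, whose product directs C/EBPα to degradation, was at 1.73, Stat3 at 1.38, Spi1 at 1.21, Csf3r at 0.637 and Runx1 at 0.585. Spi1 shares its region with Mybpc3, Psmc3 and Slc39a13, and Csf3r with Mrps15 and Oscp1.

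Of 30 reported C/EBP targets in myeloid cells with a value, 9 were higher and 5 lower with IFNγ at 4 h, with a median of 0.42, beside the same 14.7% and 12.5% of all genes. Ptgs2, the inducible cyclooxygenase, had 142 normalised reads in untreated cells and 1259.6 with IFNγ (8.87-fold). Il6 was not called in untreated cells and had 812. Pparg had 9363 and 3218 (0.344-fold), and Elane 997 and 235 (0.236-fold) in a region it shares with 5 other genes. With shCEBP-beta 0 of 31 targets were past 2-fold without cytokine, where 1.54% of all genes were. With IFNγ 1 of 30 was higher, as were 1.13% of all genes. Of 18 housekeeping genes 2 were higher and 0 lower with IFNγ, beside 14.7% and 12.5% of all genes. B2m, which encodes a subunit of MHC class I, was at 2.23-fold and Ywhaz at 2.47-fold, and the lowest were Gusb at 0.591 and Polr2a at 0.699. The regions of B2m (with Patl2, Terb2 and Trim69) and Polr2a (with Slc35g3 and Zbtb4) hold other genes.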

How the data were processed

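H3K27ac ChIP-seq was measured in 13 libraries. Per the submitters' processing notes, Bowtie2 2.2.6 (mm10, GRCm38) and SICER 1.1 were used. The deposited counts are raw ChIP and control reads in each island. The authors' deposited p-value and FDR compare an island with the control, and their deposited fold is a ratio of ChIP to scaled control reads. The highest FDR in any file was 0.00999. Where a library has no island in any region of a gene, its level is unknown and is not taken as 0. Within a region, a stretch without an island adds no reads to the sum, so a shorter called length lowers the value.

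Islands of different libraries sharing at least 1 bp were joined into 39569 regions. Size factors (median of ratios) came from the 14347 found in every library. Genes come from RefSeq (GRCm38.p6). In background counts, an uncalled library took the 5th percentile of its island reads. edgeR 4.0.16 (quasi-likelihood, TMM, R 4.3.3) gave the tests and DESeq2 1.42.0 an alternative. Of these, edgeR alone was tested on simulated data, for the IFNγ fit and the shCEBP-beta fit. SEs are the log2 change over the root of F. The named genes are the 6 members, genes sharing their regions, the 3 genes most alike, and the 2 highest and 2 lowest of each list by IFNγ at 4 h, plus Ddit3, Atf4, Junb, Spi1, Trib1 and Stat3. One gene of the regulator list, and the counts over that list, are not reported here. The members and lists were chosen with earlier results of these data known. The interval level is 95%. P-values measure only the spread between these libraries.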

Additional observations from a re-analysis of the deposited data

Results flagged for a closer look

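Pairs of comparisons in which a member moved by at least 1.25-fold in opposite directions were sought among 90 such pairs, and 4 were found. Each rests on 1 library per condition, and the difference was not tested. For Cebpb, IL-4 at 2 h stood at 1.63-fold over untreated cells, whereas adding IL-4 to IFNγ at 2 h stood at 0.634 of IFNγ alone, a difference of 1.36 on the log2 scale. The same 4 libraries give the same 1.36 for IFNγ, at 2.00-fold over untreated cells and 0.778 of IL-4 alone. For Cebpg, IL-4 at 4 h stood at 0.660 of untreated cells and at 1.97-fold over IFNγ alone when added to it, a difference of -1.58. In reads per kb of called length these ratios were 0.982 and 0.969, so the opposite directions were not seen there. For Cebpe, shJunB stood at 0.755 of scramble without cytokine and at 1.41-fold with IFNγ, a difference of -0.90. Per kb they were 1.01 and 0.648, with a called length 2.18 times as long in shJunB as in scramble cells with IFNγ.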

How the results depend on the processing

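Of the 108 ratios of a member in a comparison of 2 libraries, 2 were at least 2-fold higher and 4 lower. In the comparisons of the 2 higher ratios, 13.5% (Cebpb) and 5.39% (Cebpa) of all genes were higher. In those of the 4 lower ratios, all of Cebpg, 10.9% to 12.5% of all genes were lower. No share over all genes is given for the alternatives to these counts, so they have no background to be read against. Higher and lower counts were 13 and 2 with only the islands that touch the gene, and 0 and 0 per kb of called length. The count higher was 1 with a 10 kb window, 4 with TMM factors and 5 with the control subtracted, and the count lower was 0 with islands merged over the compared libraries alone. In the IFNγ fit the regions higher ranged from 2121 (without the shJunB pair) to 3361 and those lower from 2048 (without the shCEBP-beta pair; 2148 without scramble) to 3358, when 1 background was left out. Calls by DESeq2 were 63 higher and 2 lower for shCEBP-beta, 342 and 183 for shJunB, and 525 and 665 for IL-4. With edgeR on the regions called in every library of that fit, IL-4 had 13 higher and 2 lower. The cause of these was not tested. The calls of Cebpa, Cebpb and Cebpd held under all alternatives of the IFNγ fit, and that of Cebpg was lost without scramble. None of these alternatives corrected for called length. In reads per kb the ratios with IFNγ for 4 h were 0.784 to 1.104 for Cebpa, lower in only 2 of 4 pairs. They were 0.525 to 0.994 for Cebpd, 0.704 to 0.858 for Cebpg and 1.57 to 1.78 for Cebpb. Depth limits Cebpe most, with 350 to 570.1 normalised reads.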
